A study of Mus musculus with 14 samples.

Results

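Enzymes that write and erase marks on histones and DNA, and the genes of the Polycomb complexes, were compared between placode cells and the surrounding epidermis of the embryonic mouse. The group was set by gene symbol: every protein-coding gene whose symbol starts with Kdm (Kdm5d left out), Kmt, Hdac, Sirt, Dnmt, Cbx or Setd, with the Pcgf genes, Tet1, Tet2, Tet3, Ezh1, Ezh2, Eed, Suz12, Jarid2, Rnf2, Ring1 and Bmi1. It took 82 of the 26252 genes counted. Wild-type embryos of the strain C57BL/6JOlaHsd at E14.5 (embryonic day) gave the epithelium of the back skin, freed from the mesenchyme and sorted with an antibody against the adhesion molecule MAdCAM-1. The positive fraction was called placode-enriched, after the hair placodes, the local thickenings that become follicles. The negative fraction was called IFE, for interfollicular epithelium. There were 7 pairs of libraries, and each library held epithelium pooled from 3 to 4 littermates, so that an animal cannot be seen alone. All animals were untreated as far as the labels say.

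Polycomb proteins keep genes silent through 2 complexes. PRC2 methylates a lysine of histone H3 through Ezh1 or Ezh2, which need Eed and Suz12. PRC1 adds ubiquitin to histone H2A through Rnf2 or Ring1 with a Pcgf partner. The Polycomb Cbx proteins, but not the HP1 proteins Cbx1, Cbx3 and Cbx5, read the PRC2 mark. In embryonic epidermis Polycomb is known to hold back Merkel cell and terminal differentiation genes. Kmt, Setd and Kdm enzymes methylate or demethylate histone lysines (some Setd proteins have other substrates), Hdac and Sirt enzymes remove acetyl groups, Dnmt enzymes methylate DNA and Tet enzymes oxidise methylated cytosine.

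Of 78 members with enough counts to be tested, 24 differed between the fractions (adjusted p under 0.05 in edgeR's quasi-likelihood test, blocked by pair), 15 higher and 9 lower in placode-enriched cells. Across all genes tested 31.1% differed, 15.5% higher and 15.6% lower, so the members' 30.8% was close to the background. In such bulk samples, fewer cells of a type cannot be told apart from less RNA per cell. Most of the changes were small. The median size of the log2 fold change, placode-enriched over IFE, was 0.18 among members and 0.25 among all genes tested, and the median itself was 0.08 against -0.02. Only 7 of the 78 passed with a log2 fold change of at least 0.5 in size (9.0%), against 19.1% of all genes tested. Hdac11, Cbx7, Jarid2, Cbx2, Tet1 and Cbx6, in order of size, were among them. Cbx6 lay just inside that limit at -0.52 and Hdac6 just outside at 0.49. At least 2-fold changes were found in 2 members, Hdac11 and Cbx7, where 10.6% of all genes tested reached that size. Levels are in CPM, counts scaled to a common library size after TMM, and are given as mean ± SD over 7 libraries, and the errors of fold changes are approximate standard errors.

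Members drew more counts than the typical gene tested. In placode-enriched libraries the median member measured 77.3 CPM and the median of all genes tested 19.3 CPM, and in IFE libraries 70.4 and 19.2 CPM. These medians were not scaled to exon length, which differs between genes, so they do not show higher expression per transcript. The summed level of the members was 9919 ± 1174 against 9470 ± 624 CPM (SD, n = 7 each). The means lay closer together than either SD between libraries, and the difference within pairs was not tested. For 54 tested members the 95% interval of the log2 fold change lay wholly within 0.5 of zero, among them 44 of the 54 that did not pass. For the 10 others that did not pass the interval ran past 0.5, so a change of that size was not resolved.

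The promoter stretches of the 3 members with the largest rise are shown to let a reader see their composition. They are the bases before the transcript start in RefSeq (GRCm38.p6), cut to the part free of annotated exons, 5′ to 3′ on the strand of the gene, with the GC box (GGGCGG, or CCGCCC on the other strand), a motif known to bind Sp1, in capitals. RefSeq gives Jarid2 more than 1 start. The starts used for all 3 genes lie within the span of the GENCODE gene and not at its 5′ end. Because of the cut at exons, the stretches shown for Cbx7 and Hdac11 end before the RefSeq start. Jarid2 is taken from chr13:44730524-44730773 on the plus strand, Cbx7 from chr15:79932769-79932896 on the minus strand and Hdac11 from chr6:91156565-91156664 on the plus strand.
Jarid2: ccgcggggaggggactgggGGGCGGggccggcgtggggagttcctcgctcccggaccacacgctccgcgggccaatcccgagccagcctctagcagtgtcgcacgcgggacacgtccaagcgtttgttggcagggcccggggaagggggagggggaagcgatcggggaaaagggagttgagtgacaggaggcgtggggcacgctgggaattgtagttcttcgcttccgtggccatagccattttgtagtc
Cbx7: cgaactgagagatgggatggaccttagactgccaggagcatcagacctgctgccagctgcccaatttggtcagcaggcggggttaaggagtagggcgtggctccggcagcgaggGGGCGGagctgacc
Hdac11: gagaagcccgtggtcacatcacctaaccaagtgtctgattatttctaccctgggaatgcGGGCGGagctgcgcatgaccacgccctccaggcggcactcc

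Each of these stretches holds 1 GC box. RefSeq windows were found for 67 of the 82 members, and 61 of their 94 windows of 250 bases (64.9%) held the box, against 32.7% of all 32851 windows. The median number of CG pairs was 19.5 in the members' windows and 6 in all of them, and a member can have several windows. The set of all windows was not limited to genes tested here. A comparison with the windows of tested genes alone was not made. The motif CTTTGA, searched on both strands, the core bound by LEF/TCF factors of the Wnt pathway, was in 8 of the 94 windows (8.5%) and in 13.8% of all, and in none of the stretches shown. Neither motif contains the other. A match of letters is not a binding site.

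PRC2 components rose in part. Jarid2, which guides PRC2 to chromatin and tunes its activity (ENSMUSG00000038518; GRCm38 chromosome 13, 44729474 to 44921643, plus strand), ran from 206 to 237 CPM (median 216) in placode-enriched libraries. In IFE libraries it ran from 115 to 118 CPM (median 117). The fractions did not overlap, and the IFE values were the tighter ones, with an SD of 0.944 against 11.5 CPM. Its log2 fold change was 0.92 ± 0.06 (adjusted p = 9.05e-08), higher in 7 of 7 pairs. Among all genes tested, 14.8% had no overlap between the fractions and 26.5% moved the same way in 7 pairs. Of the 78 members, 7 did not overlap, among them Hdac11, Cbx7, Jarid2, Cbx2, Tet1 and Hdac6, which were higher in the placode-enriched fraction, and 19 moved the same way in every pair.

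Both catalytic subunits of PRC2 passed with smaller rises. Ezh1 averaged 38.7 ± 3.68 against 31.6 ± 3.48 CPM, a log2 fold change of 0.29 ± 0.07 (adjusted p = 0.00624), higher in 7 of 7 pairs with overlapping ranges. Ezh2 ran from 109.9 to 154 CPM (median 136) in placode-enriched and from 96.8 to 129 CPM (median 116) in IFE libraries. Its log2 fold change of 0.24 ± 0.08 was barely past the threshold (adjusted p = 0.0485) and was lost without replicate 1 (0.112), 2 (0.0734), 3 (0.076), 6 (0.104) or 7 (0.0785) and with library size only (0.0636). The core subunits that both need did not pass. Eed averaged 58.2 ± 2.28 against 63.7 ± 4.57 CPM (log2 -0.13 ± 0.07, adjusted p = 0.22) and Suz12 at 93.1 ± 18.8 against 95.6 ± 14.46 CPM (log2 -0.05 ± 0.10, adjusted p = 0.763). Thus 3 of 5 PRC2 members rose and 2 did not pass, where 15.5% of all genes tested rose. Whether the share among these 5 genes differs from that was not tested.

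The largest changes within PRC1 were in its Cbx readers, which bind the methylated histone tail. Cbx2 (chromosome 11, 119022962 to 119031270, plus strand) ran from 98.7 to 161 CPM (median 124) in placode-enriched and from 61.1 to 97.3 CPM (median 78.3) in IFE libraries. The lowest placode-enriched library lay just above the highest IFE library. Its log2 fold change was 0.67 ± 0.09 (adjusted p = 7.68e-05). Cbx8, 5.034 kb from Cbx2, averaged 11.8 ± 2.11 against 12.9 ± 2.55 CPM and did not pass (log2 -0.12 ± 0.15, adjusted p = 0.608).

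A pair of Cbx genes on chromosome 15 moved in opposite directions. Cbx7 (79915807 to 79971119, minus strand) ran from 26.9 to 51.1 CPM (median 37.9) in placode-enriched and from 11.9 to 19.4 CPM (median 16.6) in IFE libraries. The fractions were well apart, with a log2 fold change of 1.16 ± 0.12 (adjusted p = 5.18e-06), higher in 7 of 7 pairs. Cbx6 (79823896 to 79834688, minus strand), 81.118 kb away, ran from 90.8 to 171 CPM (median 130.2) in placode-enriched and from 151 to 241 CPM (median 177) in IFE libraries. Those ranges overlapped although Cbx6 was lower in 7 of 7 pairs, at a log2 fold change of -0.52 ± 0.13 (adjusted p = 0.00822). Overlapping genes limit both of these values. Apobec3, on the opposite strand of Cbx7, measured 3.34 against 1.77 CPM. Npcd shares exons with Cbx6 on its own strand and is not counted in the table, so reads of the pair cannot be told apart.

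**Figure D1:**
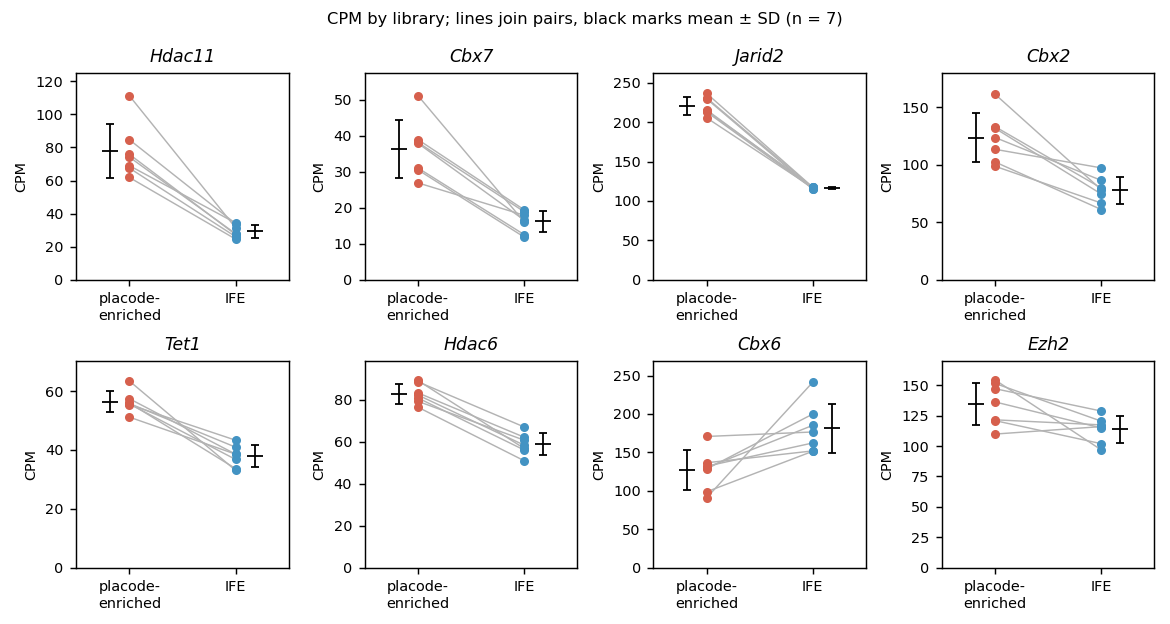
CPM (vertical axis, from zero) of 8 members in each library, by fraction. Points are libraries, lines join the libraries of a pair and black marks give the mean and SD (n = 7 each). The fractions do not overlap for Hdac11, Cbx7, Jarid2, Cbx2, Tet1 and Hdac6, and they overlap for Cbx6 and Ezh2.

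Levels of different genes were compared per kilobase of exon. Of Cbx2, Cbx6, Cbx7 and Cbx8, Cbx2 was the highest in placode-enriched libraries at 29.0 ± 5.03 CPM per kb, followed by Cbx6 at 11.9 ± 2.48, Cbx7 at 5.60 ± 1.23 and Cbx8 at 3.22 ± 0.573. In IFE libraries Cbx2 (18.3 ± 2.83) and Cbx6 (17.1 ± 3.00) were close, and Cbx2 was the higher of them in 7 of 7 libraries, by 0.066 to 2.22 CPM per kb. Cbx8 followed at 3.50 ± 0.694 and Cbx7 at 2.49 ± 0.458 CPM per kb. Per kilobase, Cbx7 was above Cbx8 in 7 of 7 placode-enriched libraries and in 0 of 7 IFE libraries. This change of order rests on their annotated exon lengths, 6487 and 3675 bases. Without length scaling the mean of Cbx7 was the higher in both fractions. Cbx7 stood at 16.2 ± 2.97 and Cbx8 at 12.9 ± 2.55 CPM in IFE libraries, and at 36.4 ± 7.98 and 11.8 ± 2.11 CPM in placode-enriched libraries. The order of Cbx2 and Cbx6 rests on annotated exon lengths as well, 4257 and 10609 bases. Without length scaling Cbx2 stood at 77.7 ± 12.1 and Cbx6 at 181 ± 31.9 CPM in IFE libraries. In placode-enriched libraries they stood at 124 ± 21.4 and 127 ± 26.3 CPM.

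**Figure D2:**
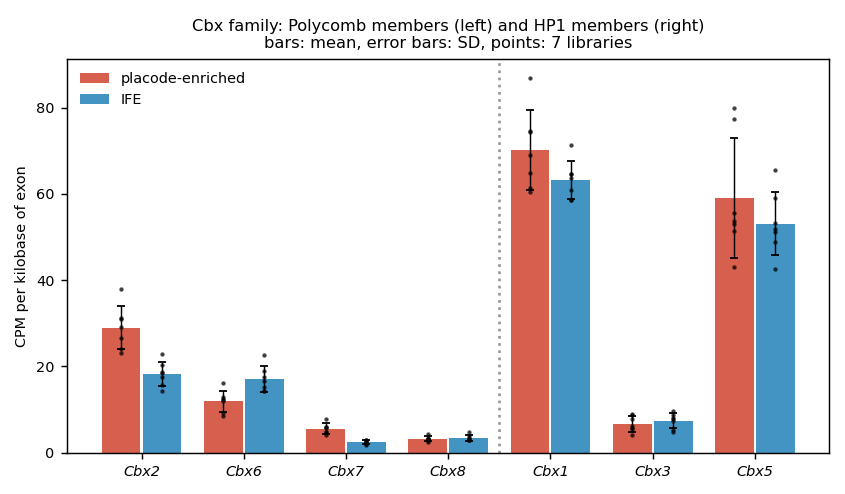
Level per kilobase of exon (vertical axis, CPM per kb, from zero) of 7 Cbx genes in both fractions. Bars are means, error bars SD and points the 7 libraries. Cbx2 is the highest of the 4 Polycomb genes drawn in placode-enriched libraries at 29.0 CPM per kb, and Cbx2 and Cbx6 lie close in IFE libraries at 18.3 and 17.1 CPM per kb.

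The share of one paralogue within a pair does not depend on how libraries are scaled, but it does depend on the exon lengths used. Cbx7 made up 31.9 ± 2.20% of the summed length-scaled level of Cbx7 and Cbx6 in placode-enriched and 12.8 ± 1.43% in IFE libraries (SD, n = 7 each), a share chosen after its genes' values were seen and not tested. The 6 shares that follow had exact two-sided sign-flip p-values of 0.266 or more before any adjustment, where 7 pairs allow none below 0.0156. Ezh2 made up 79.4 ± 2.20% against 80.0 ± 2.25% of the Ezh pair, Rnf2 77.7 ± 6.33% against 77.97 ± 4.25% of the Ring pair, and Bmi1 34.9 ± 11.5% against 35.1 ± 6.53% of Bmi1 and Pcgf2. Dnmt3a made up 82.4 ± 2.62% against 83.7 ± 2.15% of its pair with Dnmt3b, Hdac1 38.6 ± 4.67% against 38.1 ± 3.89% of its pair with Hdac2, and Kdm6b 70.3 ± 9.75% against 70.1 ± 5.03% of its pair with Kdm6a.

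**Figure D3:**
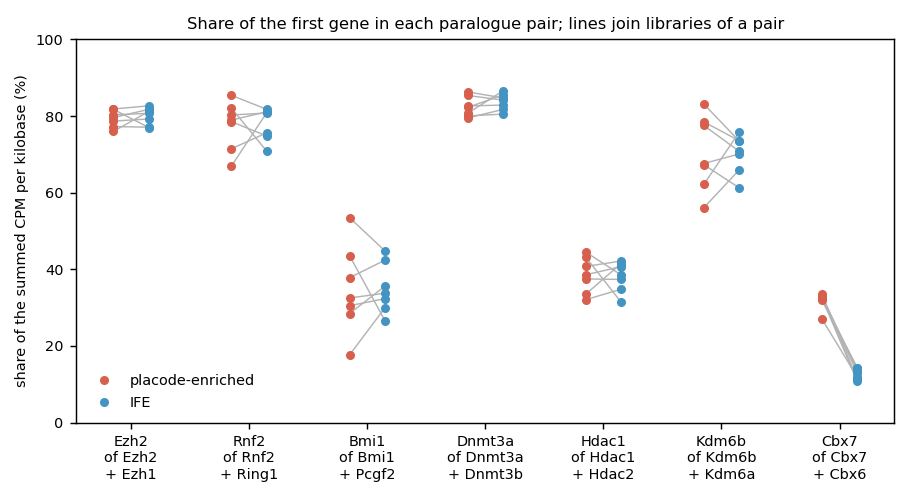
Share of the first gene in the summed CPM per kilobase of 2 paralogues (vertical axis, percent) for each library. Points are libraries and lines join the libraries of a pair. The share of Cbx7 is higher in the placode-enriched libraries, and the other pairs overlap between the fractions.

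The ring-finger core of PRC1 did not pass. Rnf2, its main ubiquitin ligase, averaged 96.3 ± 10.4 against 99.8 ± 9.38 CPM (log2 -0.05 ± 0.07, adjusted p = 0.641) and Ring1 at 21.7 ± 5.97 against 22.0 ± 3.75 CPM (log2 -0.05 ± 0.15, adjusted p = 0.839). The Pcgf partners Bmi1 (63.9 ± 13.7 against 55.6 ± 8.32 CPM, adjusted p = 0.303) and Pcgf2 (112 ± 32.3 against 92.4 ± 14.3 CPM, adjusted p = 0.11) had log2 fold changes of 0.18 ± 0.12 and 0.23 ± 0.10. Pcgf5, at 3.43 ± 1.03 against 5.02 ± 1.43 CPM, leaned lower without passing (log2 -0.55 ± 0.21, adjusted p = 0.0672). Pcgf1, Pcgf3 and Pcgf6 stood at 0.17, 0.08 and 0.30 and did not pass. Of the 17 settings run, Pcgf2 was called in 5, Pcgf5 in 3, Bmi1 in 2 and Pcgf6 in 1. Of the 13 PRC1 members 2 rose, 2 fell and 9 did not pass (30.8% passed, close to the 31.1% of all genes tested). None of the 3 HP1 genes, Cbx1, Cbx3 and Cbx5, passed in edgeR, none had an unadjusted p under 0.05, and DESeq2 and limma-voom called none either. With a GC covariate 1 of them, Cbx1, was called higher. Cbx3 has processed pseudogenes among which its reads can be split, so its value is uncertain.

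Of the 10 tested Hdac genes 2 rose, 1 fell and 7 did not pass. Hdac11, the sole class IV deacetylase (ENSMUSG00000034245; chromosome 6, 91156665 to 91174692, plus strand), showed the largest change of any member. It ran from 61.9 to 111 CPM (median 74.2) in placode-enriched and from 24.6 to 34.4 CPM (median 27.9) in IFE libraries. Each placode-enriched value lay above every IFE value, and the log2 fold change was 1.39 ± 0.09 (adjusted p = 8.5e-08). Hdac6, a deacetylase of tubulin in the cytoplasm, averaged 82.9 ± 4.68 against 58.9 ± 5.10 CPM (log2 0.49 ± 0.07, adjusted p = 6.62e-05), again without overlap. Hdac8 fell (log2 -0.26 ± 0.09, adjusted p = 0.0419). That call was lost when the block was dropped (0.1253) or on leaving out replicate 1, 2, 3, 4, 6 or 7 (0.102, 0.1, 0.0817, 0.0922, 0.0594 and 0.12). Hdac8 was also not called with library size only (0.0573), no filter (0.109) or DESeq2 size factors (0.0503). Gm14573 and Gm44002, which overlap Hdac11 on the opposite strand, are not counted in the table. Hdac1 at 81.7 ± 9.0 against 75.2 ± 8.14 CPM (log2 0.12 ± 0.08, adjusted p = 0.319) and Hdac2 at 172 ± 35.2 against 162 ± 36.0 CPM (log2 0.09 ± 0.10, adjusted p = 0.569), the deacetylases of the NuRD, Sin3 and CoREST complexes, did not pass. No sirtuin passed in edgeR or limma-voom, although 4 of 7 had an unadjusted p under 0.05 and DESeq2 called 2, Sirt3 and Sirt6. The same 2 were called in edgeR with library size only, and Sirt2 with them without replicate 3. Sirt7 was called without replicate 4, and the GC covariate called 4 sirtuins, 3 higher and 1 lower. Sirt1 averaged 31.0 ± 6.17 against 27.1 ± 5.35 CPM (log2 0.19 ± 0.12, adjusted p = 0.261).

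Genes of DNA methylation moved in both directions. The enzymes that set new methylation rose. Dnmt3a averaged 309 ± 30.3 against 253 ± 13.7 CPM (log2 0.28 ± 0.07, adjusted p = 0.00583), higher in 7 of 7 pairs, and Dnmt3b at 20.3 ± 3.85 against 15.1 ± 2.14 CPM (log2 0.42 ± 0.11, adjusted p = 0.00985), higher in 6 of 7. Dnmt1, which copies methylation onto new DNA, fell from 458 ± 26.99 in IFE to 404 ± 30.03 CPM in placode-enriched libraries (log2 -0.18 ± 0.06, adjusted p = 0.038). The Dnmt1 call was lost when the block was dropped (0.0627) or on leaving out replicate 1, 2, 4, 6 or 7 (0.0734, 0.148, 0.121, 0.0565 and 0.136). Dnmt1 was also not called with library size only (0.0818), no filter (0.113) or the filter of 1 CPM (0.0513). Tet1, a dioxygenase that starts the removal of methylation (ENSMUSG00000047146; chromosome 10, 62804570 to 62908996, minus strand), ran from 51.2 to 63.5 CPM (median 55.8) in placode-enriched and from 33.1 to 43.3 CPM (median 38.6) in IFE libraries. The fractions did not overlap, at a log2 fold change of 0.58 ± 0.08 (adjusted p = 0.000142). Tet2 averaged 114 ± 8.83 against 108 ± 7.34 CPM (log2 0.08 ± 0.07, adjusted p = 0.432). Tet3 averaged 489.5 ± 171 against 604 ± 118 CPM, a fall of -0.35 ± 0.12 (adjusted p = 0.0415) that was lost when the block was dropped (0.241). It was also lost on leaving out replicate 1 (0.12), 2 (0.111), 3 (0.0696), 4 (0.0668), 6 (0.0574) or 7 (0.109). Tet1 and Tet3 therefore moved in opposite directions in the full set.

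Histone methyltransferases and demethylases passed at shares near the 31.1% of all genes tested. Of 18 methyltransferases 2 rose, 3 fell and 13 did not pass (27.8% passed). Kmt2a, which methylates histone H3 at active promoters and counters Polycomb, rose from 226 ± 45.8 to 301 ± 71.9 CPM (log2 0.40 ± 0.07, adjusted p = 0.000436), higher in 7 of 7 pairs. Kmt5a, which adds the first methyl group to a lysine of histone H4, fell by 0.43 ± 0.07 (adjusted p = 0.000342), and Kmt5c, which adds further ones, rose by 0.33 ± 0.11 (adjusted p = 0.0387). The Kmt5c call was lost when the block was dropped (0.122) or on leaving out replicate 1, 2, 4, 5 or 6 (0.0895, 0.0724, 0.0899, 0.0984 and 0.093). Setdb2 and Setd7 were the others that fell, at -0.46 ± 0.13 (adjusted p = 0.0192) and -0.22 ± 0.07 (adjusted p = 0.035). Setdb2 was not called without replicate 2, 4 or 6 (0.0686, 0.0705 and 0.0542), nor Setd7 without replicate 1, 2, 4 or 7 (0.114, 0.0829, 0.114 and 0.0899), with library size only (0.0709) or with no filter (0.0911). Kmt2d, an enhancer methyltransferase, averaged 713 ± 359 against 665 ± 188 CPM (log2 0.01 ± 0.14, adjusted p = 0.952) and Setdb1, which marks silent repeats, at 124 ± 8.89 against 123 ± 10.6 CPM (log2 0.01 ± 0.07, adjusted p = 0.938). Of 16 tested demethylases 3 rose, 1 fell and 12 did not pass (25.0% passed). Kdm1a, the demethylase of the CoREST complex, averaged 110.4 ± 7.30 against 90.9 ± 9.07 CPM (log2 0.28 ± 0.07, adjusted p = 0.0109), higher in 7 of 7 pairs. Kdm4a rose by 0.31 ± 0.08 (adjusted p = 0.00706), and Kdm5b, which demethylates histone H3 at promoters, fell by 0.26 ± 0.07 (adjusted p = 0.0151). Kdm2b, which recruits a variant PRC1 to unmethylated CG-rich DNA, rose by 0.25 ± 0.09 (adjusted p = 0.0441), from 41.6 to 49.4 CPM. That call was lost when the block was dropped (0.0617), on leaving out replicate 1, 4, 5 or 6 (0.0899, 0.0814, 0.104 and 0.13), and with no filter (0.0515). Overlapping genes limit the Kdm2b value. On its opposite strand Rnf34 measured 29.9 against 27.2 CPM and A930024E05Rik 3.11 against 2.58 CPM. Gm44574 shares exons with Kdm2b on its own strand and is not counted in the table. Kdm5b lost its call without replicate 2, 4 or 7 (0.0682, 0.0602 and 0.0532) and with library size only (0.0619). Kdm6a (145 ± 16.4 against 129.5 ± 12.1 CPM, adjusted p = 0.0973) and Kdm6b (320.1 ± 138 against 258 ± 50 CPM, adjusted p = 0.287), which remove the PRC2 mark, did not pass, with log2 fold changes of 0.16 ± 0.07 and 0.23 ± 0.15. Kdm5c averaged 235 ± 26.0 against 219 ± 23.4 CPM (log2 0.10 ± 0.07, adjusted p = 0.328).

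**Figure D4:**
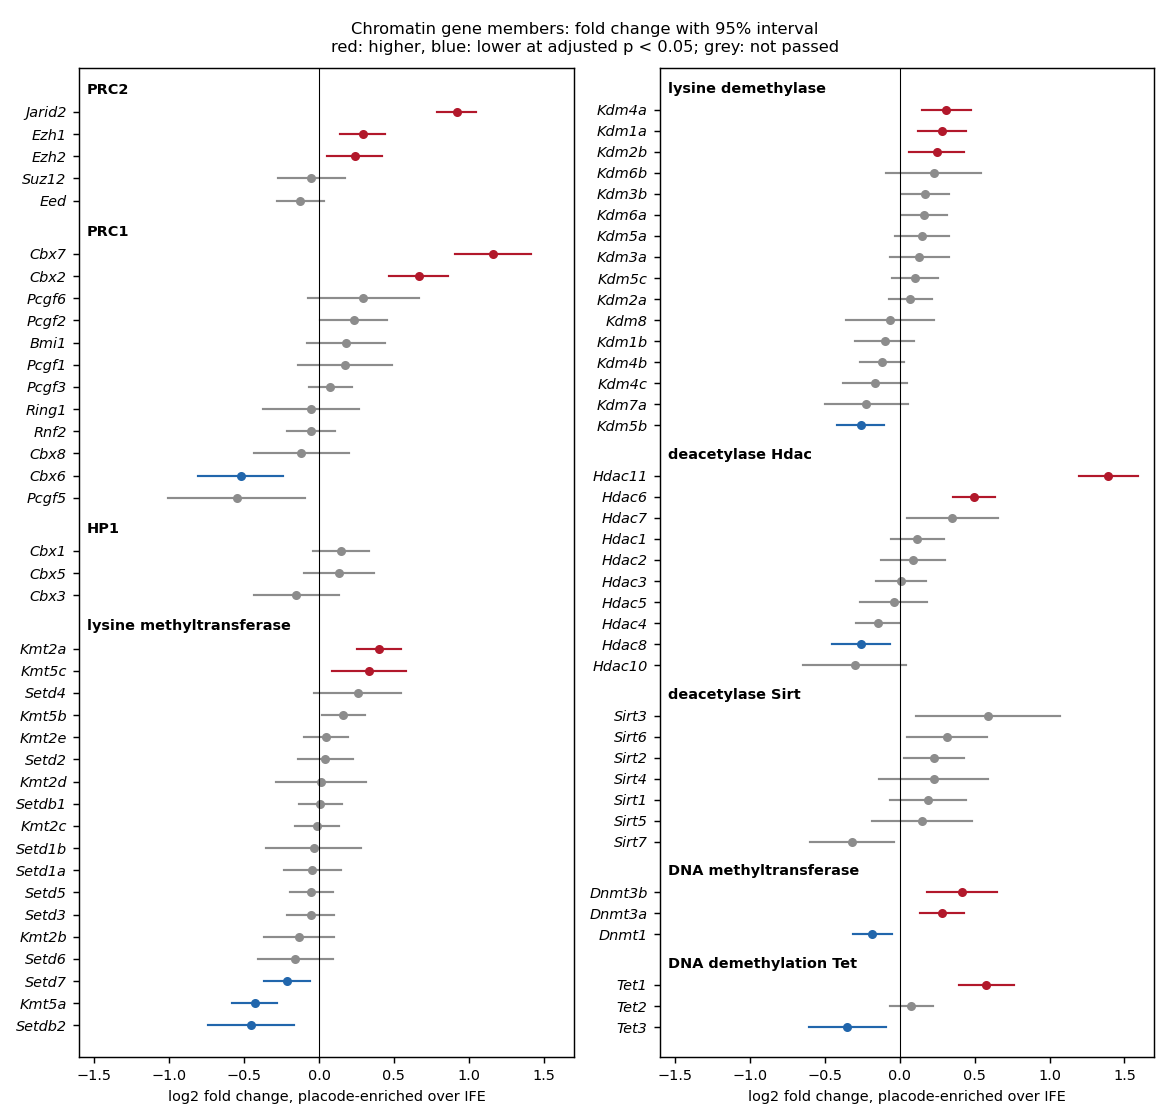
Log2 fold change of 77 tested members (horizontal axis, placode-enriched over IFE) with 95% intervals, grouped by role. Red members rose and blue members fell at an adjusted p under 0.05, and grey ones did not pass. Most intervals lie within 0.5 of zero, and Hdac11, Cbx7, Jarid2 and Cbx2 lie farthest to the right.

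The 4 members removed for low counts were near the limit of detection. Dnmt3l had 1 count over the 7 placode-enriched and 2 over the 7 IFE libraries, and the rodent germline gene Dnmt3c had 6 and 5. Hdac9 had 72 and 64 counts and Kdm4d 88 and 33, with counts in every placode-enriched library but not in every IFE library for Kdm4d.

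Within each fraction the members varied along 1 shared axis that followed base composition. It held 60.0% of the variance of the 78 members around their fraction means, and the next axis held 10.5%. Across members the loading correlated with the GC content of the longest transcript (Pearson 0.76, Spearman 0.75), a description over genes that share libraries. The 10 members at the high end, such as Kmt2d, Setd1b, Kdm6b and Tet3, had 50.6% to 60.2% GC, and the 10 at the low end, such as Hdac2, Sirt1, Bmi1 and Suz12, had 38.7% to 44.5%. Placode-enriched replicate 5 scored highest at 3.44 and placode-enriched replicate 1 lowest at -2.69. Kmt2d ran from 333 CPM in replicate 1 to 1383 CPM in replicate 5 of the placode-enriched libraries, and from 349 to 854 CPM in IFE. Over 15261 genes with known GC, the same replicate 5 had the steepest slope, 0.307 on the log2 scale per 10% GC. What set this axis was not tested. The fold changes themselves correlated only weakly with GC across members (Pearson 0.16).

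**Figure D5:**
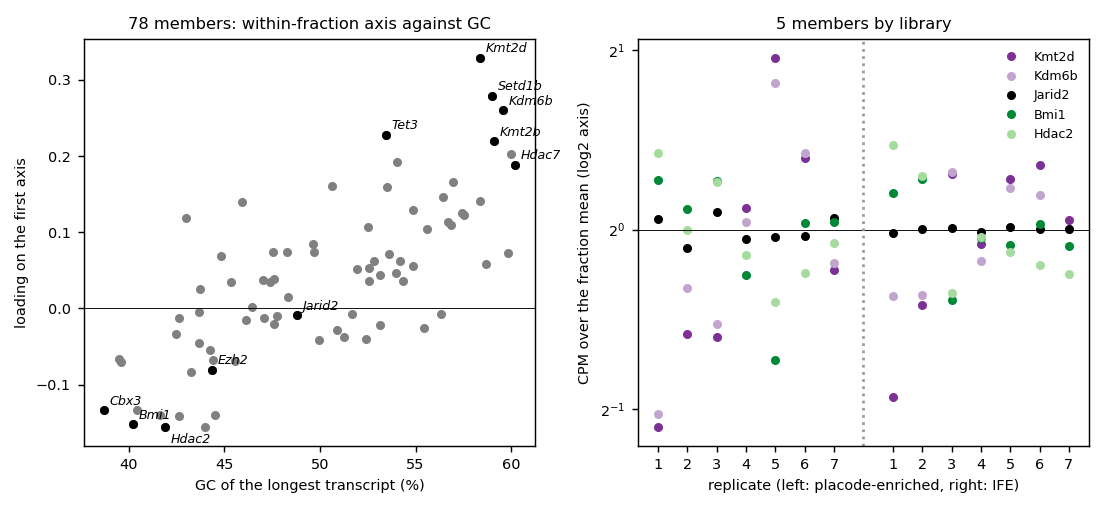
Left, loading of each of the 78 members on the first axis of variation within fractions (vertical) against GC content of its longest transcript (horizontal, percent), with a correlation of 0.76. Right, CPM of 5 members in each library over the mean of its fraction (log2 axis), in which placode-enriched replicate 5 stands highest for Kmt2d.

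With each library's GC slope as a covariate, an alternative chosen after seeing the data, 41 members passed, 28 higher and 13 lower, and all 24 of the main calls remained. In the same setting 42.4% of all genes passed, 20.3% higher and 22.1% lower. Bmi1 (log2 0.18, adjusted p = 0.0123), Pcgf2 (0.0117), Kdm6a (0.0098) and Kdm6b (0.0128) were among the 17 gained.

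The pairs fall into 2 sets by title code, whose meaning the labels do not give. In the 3 pairs coded 27-7, 7 members passed, 7 higher and 0 lower, where 14.9% of all genes passed (7.81% higher, 7.04% lower). The 4 other pairs gave 13, 9 higher and 4 lower, against 19.9% (9.99% higher, 9.94% lower). Hdac11, Cbx7, Jarid2, Cbx2, Hdac6 and Kmt2a passed in both sets. Cbx6 (log2 -0.32, adjusted p = 0.163) and Tet1 (0.41, 0.0514) did not pass in the 27-7 pairs alone. The fraction by set interaction passed for no gene (0.0% of 15382; smallest adjusted p = 0.902), and 3.43% of genes, 0 of them members, had an unadjusted p under 0.05.

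X-linked members were set against Xist, the RNA that coats the inactive X, since pools can hold unequal numbers of females. Xist ran from 877 to 3657 CPM in placode-enriched and from 584 to 2821 CPM in IFE pools. Kdm5c, known to escape X inactivation, followed Xist over the 7 IFE pools with Pearson r = 0.81 (exact permutation p = 0.0185, adjusted 0.106 over 8 relations) and Spearman rho = 0.93 (exact permutation p = 0.00675, adjusted 0.054). Without the 2 pools farthest from the median, r was 0.88. In placode-enriched pools its r was only 0.08 (exact permutation p = 0.874). Kdm6a, another escape gene, had r = 0.82 in IFE pools (exact permutation p = 0.0266, adjusted 0.106; rho = 0.75, exact permutation p = 0.0663), which rested on replicates 2 and 4, since r was 0.14 without them. In placode-enriched pools it had r = 0.66 (exact permutation p = 0.0903, adjusted 0.241) and 0.59 without those 2 pools. None of the 8 relations passed after adjustment, and Hdac6 and Hdac8 had r between -0.27 and 0.31.

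Of 88 chromatin genes outside the symbol rule, in 8 lists, 83 were tested and 25 passed (30.1%), 18 higher and 7 lower, close to the 31.1% of all genes. Among PRC1 partners 4 of 13 rose and 1 fell. Scmh1 averaged 84.1 ± 17.4 against 46.6 ± 7.98 CPM (log2 0.84 ± 0.07, adjusted p = 6.55e-07), Yaf2 rose by 0.37 ± 0.10 and Phc1 by 0.30 ± 0.09. Of 7 PRC2 partners only the histone-binding Rbbp7 passed, at -0.24 ± 0.08. Asxl3 (0.66 ± 0.11) and Asxl1 (0.29 ± 0.06), partners of the H2A deubiquitinase, rose, and 2 of the list's 4 did not pass. Of 10 acetyltransferases Kat6b (0.62 ± 0.07) and Ep300 (0.24 ± 0.07) rose and Kat2b fell (-0.72 ± 0.14). Of 20 deacetylase partners 5 rose, such as Rcor2 of CoREST (0.58 ± 0.10) and Chd3 of NuRD (0.51 ± 0.08), and Gatad2a fell (-0.48 ± 0.07). Of 18 tested other methyltransferases and their partners, Ehmt1 (0.20 ± 0.07) rose, Smyd2 (-0.47 ± 0.07) and Dpy30 (-0.36 ± 0.09) fell. Of 7 DNA methylation partners only Uhrf2 passed (0.25 ± 0.08).

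Genes known to be held silent by Polycomb in epidermis moved too, at low levels. Sox2, a Merkel cell factor that is also made in other skin cells, averaged 3.28 ± 1.05 against 0.289 ± 0.164 CPM (log2 3.58 ± 0.41, adjusted p = 1.60e-05). The simple keratins Krt18 (8.43 ± 0.709 against 2.41 ± 0.701 CPM, log2 1.84 ± 0.19) and Krt8 (2.34 ± 0.750 against 0.924 ± 0.585 CPM, log2 1.5 ± 0.47) rose as well. Cdkn2b, a cell cycle inhibitor, fell from 2.22 ± 0.775 to 0.603 ± 0.360 CPM (log2 -2.03 ± 0.50). The other 4 of the list were removed for low counts: Atoh1 measured 1.03 against 0.0391 CPM, Isl1 at 0.236 against 0.0245, Krt20 at 0.0390 against 0.0294 and Cdkn2a at 0 against 0.0144. Sox2, Atoh1, Isl1 and Krt20 are also the Merkel cell markers used here, and they summed to 3.50 to 6.70 CPM in placode-enriched libraries, against 0.0335 to 0.556 CPM in the IFE.

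The fractions differed in markers of other cell types. Library totals lay between 23.8 and 49.5 mega counts. Suprabasal markers summed to 204 to 458 CPM in placode-enriched libraries, against 2776 to 4364 CPM in the IFE (6 of 6 tested lower), and periderm markers to 10.9 to 22.9 against 77.5 to 95.3 CPM (4 of 4 lower). Basal markers measured 4471 to 5830 against 5132 to 6501 CPM, lower in 7 of 7 pairs by their sum (2 genes higher and 2 lower of 4). Melanoblast markers measured 8.31 to 14.6 against 124 to 222 CPM (8 of 8 lower), Schwann cell and neuron markers 81.8 to 110.6 against 144 to 158 CPM (3 of 5 lower), and fibroblast markers at 365 to 592 against 248 to 338 CPM (2 higher and 1 lower of 6, mostly Dcn). Placode markers measured 891 to 1487 against 104 to 174 CPM (8 of 8 higher). Endothelial, immune and erythroid markers each summed to at most 3.38 CPM in a library. The part of these markers in the members' differences was not tested.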

How the data were processed

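The table that the authors deposited gives a read count for each Ensembl gene in 14 libraries, as whole numbers with no normalization that the values show. Per the labels' protocols, live sorted cells gave total RNA for Ovation SoLo libraries. Per the submitters' processing notes, the reads passed through Trimmomatic, STAR (given as 1.5) and HTSeq on the build GRCm38, also called mm10, after bcl2fastq (2.17.1.14), with FastQC and MultiQC as quality checks. Neither the strand setting nor any use of molecular identifiers is stated (not given in the sources used here), so opposite-strand neighbours can share reads (30 of 82 members have one), and amplified reads are not independent molecules.

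Symbols and coordinates came from GENCODE M21 (GRCm38). It matched 25949 of 26252 identifiers, and the other 303 held 0.436% of counts. Counts were fitted with edgeR 4.0.16 and limma 3.58.1 in R 4.3.3, and tables and figures were made in Python 3.11.15 with numpy 2.4.6, pandas 2.3.3, scipy 1.17.1 and matplotlib 3.10.9. filterByExpr left 15382 genes and removed 10870, scaling was TMM, and robust quasi-likelihood F tests with the pair as a block were adjusted by Benjamini-Hochberg over all genes tested. The biological coefficient of variation common to all genes was 0.216. The test was also tried on simulated counts, which took their common dispersion from the fit of these libraries. The simulated counts held no pair effect, and the outcome is not given here.

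Pairs come from the title codes, the design text and the pooling by litter. Within a pair, the libraries' deviations from their fraction had a mean correlation of 0.093 (-0.317 to 0.395, over 0.1 in 4 of 7 pairs). Nothing says that pairs are separate litters or days, so p-values cover only the spread seen among these pools.

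The members and lists were chosen with earlier results of these data known. Named genes were members that passed with a log2 fold change of at least 0.5 in size, a set of 27 chosen names, the members removed by the filter, and up to 3 passing genes of each other list. Values of 1 member are not reported here, and it stays in the counts. The other members named were chosen after their values were seen. Alternatives were no pair block, DESeq2 1.42.0 and its size factors, library size only, no filter, a filter of 1 CPM in 7 libraries, limma-voom, each replicate left out, each code set alone and, chosen after seeing the data, a GC covariate.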

Additional observations from a re-analysis of the deposited data

Results flagged for a closer look

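In 2 of the 60 groups of 7 libraries examined, the highest library stood far from the others by Dixon's test, where chance flags about 1 in 20 groups. Hdac1, a class I deacetylase, reached 100.3 CPM in placode-enriched replicate 2, and the next highest library stood at 83.9 CPM. Setdb1, a methyltransferase of silent chromatin, reached 142 CPM (141.9) in placode-enriched replicate 6, with the next at 126 CPM. Neither gene passed the comparison of the fractions.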

How the results depend on the processing

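Small changes set the limits here: at log2 sizes below 0.5, 17 members passed, and most calls that came or went with a setting were of that size. Hdac11, Cbx7, Jarid2, Cbx2, Hdac6 and Kmt2a passed in the 17 settings run, and the median fold change of all genes lay between -0.039 and 0.013 on the log2 scale in these settings. Without the pair block 19 of the 24 calls remained and none was gained, where 30.5% of all genes tested passed. The 5 lost were Dnmt1, Hdac8, Kdm2b, Kmt5c and Tet3. DESeq2 called 28 members and limma-voom 24, each with all 24 shared. Of all genes tested they called 35.1% and 32.4%. With DESeq2 size factors Hdac8 was lost, with the 1 CPM filter Dnmt1, with no filter Dnmt1, Hdac8, Kdm2b and Setd7, and with library size only Dnmt1, Ezh2, Hdac8, Kdm5b and Setd7, while Hdac7, Pcgf2, Sirt3 and Sirt6 were gained.

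With library size only, 5 members fell in place of 9, and 29.7% of all genes tested passed in either direction. With a replicate left out, 12 to 20 members rose and 3 to 9 fell, and 2037 to 2513 of all genes rose and 1916 to 2716 fell. In the 27-7 pairs alone 7 members rose and 0 fell, 10 other chromatin genes rose and 2 fell, and 1226 of all genes rose and 1105 fell. In the other pairs alone the counts were 9 and 4 members, 11 other chromatin genes higher, and 1547 and 1540 of all genes. With the GC covariate, chosen after seeing the data, 28 members, 33 other chromatin genes and 20.3% of all genes tested rose. The 24 calls remained and 17 were gained, among them Cbx1 and 4 sirtuins. Fewer samples enter the sets of pairs, and for the other settings the cause was not tested.

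Small differences of the log2 ratios between paralogues changed sign with a replicate left out: Rnf2 to Ring1 from -0.15 to 0.18, Hdac1 to Hdac2 from -0.087 to 0.12, Bmi1 to Pcgf2 from -0.24 to 0.11, Kdm6b to Kdm6a from -0.069 to 0.22 and Ezh2 to Ezh1 from -0.13 to 0.012. Without the 2 pools farthest from the median of Xist, r was 0.30 for Hdac6 in placode-enriched pools, 0.65 for Hdac6, 0.20 for Hdac8 and 0.14 for Kdm6a in IFE pools. Fold changes near zero also changed sign with a replicate left out: Setdb1 from -0.017 to 0.042, Ring1 from -0.19 to 0.052, Hdac2 from -0.013 to 0.15, Kmt2d from -0.11 to 0.15 and Suz12 from -0.16 to 0.022. In the 27-7 pairs alone Ring1 stood at 0.14 and Setdb1 at -0.064. In the other pairs alone Kdm6b stood at -0.00082, Kmt2d at -0.16, Rnf2 at 0.0049 and Suz12 at 0.095.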
